A study of Homo sapiens with 24 samples.

Results

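The comparison described here is arsenic trioxide (ATO) against no treatment in NB4 cells, an established human line of acute promyelocytic leukaemia (APL) that the labels give as wild type. Its members are 6 of the 24 libraries of the series, chosen by their labels: 3 of NB4 cells given 0.8 µM ATO for 48 h and 3 of untreated NB4 cells, compared across the 60655 genes of the deposited count table. Both groups grew in RPMI medium with serum. No other drug was given to either group, and the culture time of the untreated cells is not stated. The other 18 libraries are NB4 cells given 1.0 µM all-trans retinoic acid (ATRA) or both drugs, and HL-60, an acute myeloid leukaemia line outside the APL class, in the same 4 groups. The series was about how these drugs change transcription in APL and other myeloid leukaemia cells, with attention to the response to DNA damage. Each group has 3 libraries, numbered as batches. No source says that they are from separate cultures, so each p-value is set against the spread of these libraries alone, which may be technical, and NB4 stands for 1 cell line.

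APL cells are arrested at the promyelocyte stage by the fusion protein PML-RARA, which holds retinoid target genes silent. Arsenic binds cysteines of the PML part, which leads to SUMO modification and proteasomal destruction of the fusion protein, and at low doses it lets APL cells mature in part. Arsenic also binds the thiols of many other proteins and of glutathione. Cells answer with 3 classes of defence gene: metallothioneins, which bind metal ions and are switched on by the factor MTF1, targets of the oxidant-sensing factor NRF2, and chaperones.

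The 6 libraries held 40647207 to 46748442 counts. Levels below are CPM, the counts of a gene scaled to library size and to the TMM factor of each library. They can be compared between libraries of a line but not between genes, since they are not per length. NB4 and HL-60 libraries were scaled separately, so levels can be compared only roughly between the lines. Each pair of libraries within a group differed by more than counting noise, the chi-square divided by its degrees of freedom being 8.17 to 14.8 in untreated and 5.74 to 11.5 in ATO cells. The ATO libraries had reads on more genes (20383 to 20807, against 19227 to 19711), a smaller share of counts on mitochondrial genes (2.93 to 3.81%, against 4.39 to 5.52%) and a smaller share on the 50 most counted genes (15.2 to 15.7%, against 16.4 to 17.5%). Among promyelocyte markers, MPO was abundant in all 6 libraries, while ELANE had a mean of at most 0.209 CPM, so this defining granule gene is all but absent. All 8 erythroid markers had no reads. The summed level of 7 monocyte or macrophage markers was 8.84 to 10.6 CPM in untreated and 8.95 to 10.2 CPM in ATO cells, of 5 epithelial markers 13.5 to 17.0 and 15.5 to 17.1 CPM, and of 5 fibroblast markers under 1 CPM in each library.

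A gene is called changed where edgeR's quasi-likelihood test gave a Benjamini-Hochberg adjusted p below 0.05. With ATO, 6674 of 16370 tested genes were called (40.8%), 3466 higher (21.2%) and 3208 lower (19.6%). Of the called genes, 6506 had groups that did not overlap, so a lack of overlap adds little to a call. The median log2 change of all tested genes was 0.0202. Rises were larger than falls: the median size of a called change was 0.63 for rises and 0.41 for falls on the log2 scale, 530 genes rose and 81 fell by at least 4-fold, and 261 rose and 27 fell by at least 8-fold. Most of the steepest rises were of rare transcripts. Of the 530 genes, 361 (68.1%) stayed under 1 CPM in both groups, against 25.5% of all tested genes, and 58 reached 5 CPM. Protein-coding genes made up 66.8% of the 530 and 75.4% of all tested genes. A further view of this is that 272 genes had no read in any untreated library and at least 1 in every ATO library, with a median of 0.0916 CPM and a highest mean of 1.11 CPM after ATO, while 51 genes showed the opposite. Some markers of unrelated cell types rose as well, not all of them rare transcripts. The summed level of 7 T or NK cell markers was 33.9 to 35.6 CPM in untreated and 81.4 to 89.7 CPM in ATO cells (3 of 7 rose, chiefly NKG7, 32.5 to 80.6 CPM), of 5 B cell markers 4.93 to 4.96 and 11.0 to 13.5 CPM (2 of 5 rose, among them CD79A), and of 5 megakaryocyte markers 1.45 to 2.3 and 9.41 to 13.8 CPM (2 of 5 rose, ITGA2B and PPBP). Of the defining markers of these types, CD3E went from no reads to 0.706, 0.531 and 0.659 CPM, while MS4A1, PF4 and GP9 had no reads in any of the 6 libraries. The part of other cell types in the rises was not tested. The balance of directions depends on scaling: with library sizes alone, the changes of all genes moved up by a median of 0.107 and 69% of calls were higher, against 51.9%.

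**Figure D1:**
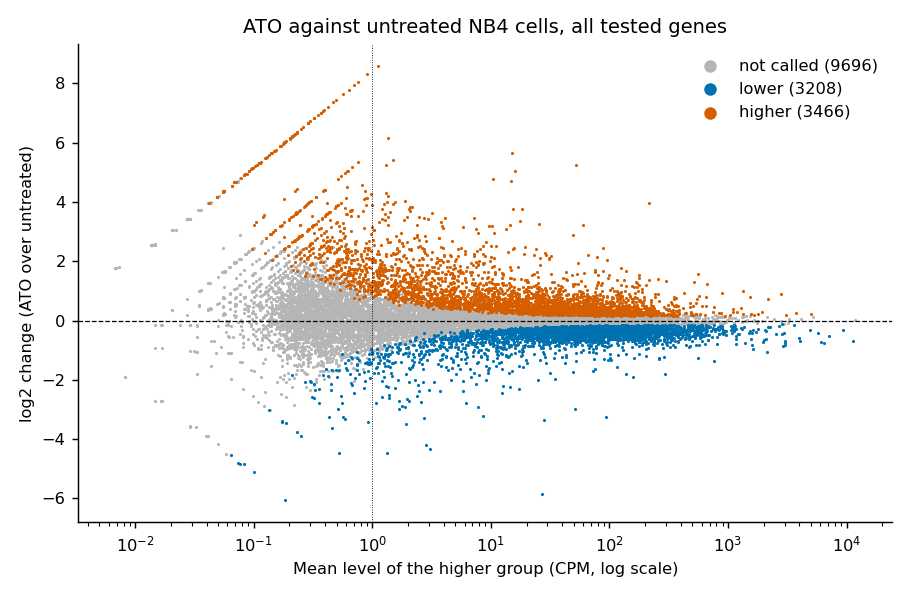
Log2 change with ATO in NB4 cells (ATO over untreated, vertical) against the mean level of the higher group (CPM, log axis) for the 16370 tested genes. Orange points were called higher (3466), blue points lower (3208) and grey points were not called. The largest changes lie at low levels and upward: 361 of the 530 rises of at least 4-fold are left of 1 CPM.

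Among protein-coding genes of at least 5 CPM whose groups did not overlap, the 20 largest rises spanned oxidant defence, the phagocyte oxidase and signalling of mature neutrophils. The haem oxygenase gene HMOX1, whose enzyme splits haem and which is a classic stress gene, was at 0.296, 0.1 and 0.483 CPM in the 3 untreated libraries and at 14.2, 14.4 and 16.8 CPM in the 3 ATO libraries. The lowest ATO library stood far above the highest untreated one. As in any bulk sample, a rise in each cell and a rise in a share of the cells cannot be told apart here. NCF1, which encodes the p47phox subunit of the NADPH oxidase, went from 1.28, 1.9 and 0.987 CPM to 48.9, 55.3 and 51.9 CPM. NCF1 has pseudogenes of nearly the same sequence, so its level depends on how shared reads were counted. The Src-family kinase gene FGR was at 0.469, 0.601 and 0.395 CPM before and 14.7, 17.4 and 15.5 CPM after ATO. The adaptor gene PRAM1, first described as a gene that PML-RARA represses, was at 14.1, 13.4 and 14.3 CPM and then at 213, 232 and 200 CPM, a rise of 15.4-fold (log2 change 3.95 ± 0.0786, standard error, adjusted p = 2.84e-19). The set was chosen for groups that do not overlap, and in these 4 genes the gap was wide. The ATO libraries of each gene lay close together.

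The rest of that set included channels, receptors and regulators of other kinds. TMC8, a channel-like gene mutated in a skin disease of papillomavirus susceptibility, rose from 1.69 ± 0.361 to 17.5 ± 1.46 CPM (SD, n = 3 per group, log2 change 3.37 ± 0.141). The adhesion receptor gene ADGRG3 (GPR97), found on granulocytes, rose from 2.61 to 25.3 CPM (3.26 ± 0.148), and GBP5, an interferon-induced GTPase gene, from 0.646 to 5.8 CPM (3.17 ± 0.216). CYTH4, an exchange factor for ARF GTPases, rose from 1.57 to 13.5 CPM (3.10 ± 0.165), and SEPT1, a septin gene, from 1.4 to 10.7 CPM (2.94 ± 0.17). The immune checkpoint gene VSIR (VISTA) was at 6.21, 7.44 and 6.49 CPM and then 49.5, 45.3 and 52.4 CPM, with no overlap and a log2 change of 2.87 ± 0.0898. ASB2, which encodes a ubiquitin ligase subunit known as a retinoic acid target, rose from 1.44 to 9.12 CPM (2.65 ± 0.182). The repressor gene GFI1B, which works in red cell and platelet precursors, rose from 0.991 to 7.72 CPM (2.96 ± 0.172), and the platelet integrin gene ITGA2B from 1.72 to 9.96 CPM (2.52 ± 0.178), while erythroid globin genes stayed without reads. COL9A2 (a collagen chain, 2.52 ± 0.129) and CLEC5A (a myeloid lectin receptor that signals through TYROBP, 2.50 ± 0.224) rose too, as did CD52, ALOX5AP, DEFA4 and S100A9, which are described with their groups.

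The largest falls, chosen by the same rule for groups that do not overlap, were of a different kind. CYTL1, a secreted protein gene of CD34+ progenitors, was at 27.6, 27.7 and 26.4 CPM without and 0.582, 0.204 and 0.637 CPM with ATO, 57.4-fold lower. CYP1B1, an oestrogen- and arene-oxidising enzyme, was at 27.6, 28.9 and 27.5 CPM and then at 2.58, 2.53 and 3.1 CPM. CHAT, which makes acetylcholine, was at 89.4, 99.4 and 90.8 CPM and then at 9.97, 8.88 and 10.1 CPM. In these 3 genes no ATO library came near the untreated ones. Of 12 telomerase and shelterin genes 3 fell (25%, against 19.6% of all tested genes) and none rose. The list median was -0.03, and with library sizes alone 3 fell and 3 rose. The telomerase catalytic subunit gene TERT went from 16.9, 16.2 and 19.1 CPM to 3.37, 3.8 and 3.4 CPM (log2 change -2.30 ± 0.156), and the receptor tyrosine kinase gene FLT3 from 5.38, 5.38 and 6.76 CPM to 1.33, 0.735 and 1.29 CPM (-2.38 ± 0.268). The scaffold gene AHNAK fell from 292 ± 9.26 to 82.8 ± 5.7 CPM (SD, n = 3 per group, -1.82 ± 0.0737), the basophil and promyelocyte gene MS4A3 from 159 ± 5.09 to 42.9 ± 2.38 CPM (-1.89 ± 0.104) and the azurophil protease gene CTSG from 137 ± 7.53 to 39 ± 4.46 CPM (-1.82 ± 0.0964). PTPN3, a tyrosine phosphatase, fell from 51 to 6.43 CPM (-2.99 ± 0.132), and the proton-gated channel gene ASIC1 from 35 to 8.86 CPM (-1.98 ± 0.172). Others, with their log2 changes, were GRASP (a receptor scaffold, -3.21), THSD7A (a thrombospondin-domain protein, -2.80), SOX18 (a factor of vessel growth, -2.43), MTUS1 (a microtubule partner, -2.23), MICAL2 (an actin-oxidising enzyme, -2.00), VIT (a matrix protein, -1.85), AQP3 (-2.21), F3 (-2.00) and JUN (-1.91). The last 3 are taken up with their groups.

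**Figure D2:**
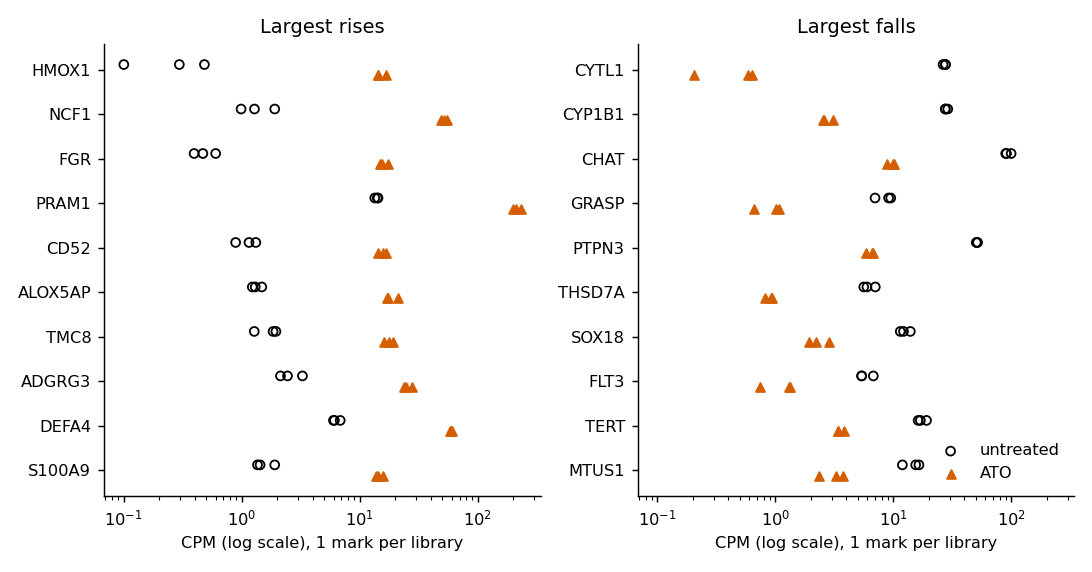
CPM (log axis) of 10 of the largest rises and 10 of the largest falls among protein-coding genes of at least 5 CPM in NB4 cells, all named in the text. Each circle is 1 untreated and each triangle 1 ATO library, 3 of each per gene. Genes were chosen on the condition that the 3 ATO libraries lie on one side of the 3 untreated ones, so that separation is not a result.

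The counts of each gene list below are to be read beside the shares of all tested genes, 21.2% called higher and 19.6% lower. Metallothioneins were the first defence genes examined. Of 10 members, only MT1F, MT1X and MT2A passed the filter on low counts, and all 3 rose. MT2A was at 116, 117 and 127 CPM in untreated and 299, 294 and 303 CPM in ATO cells, MT1X at 2.19, 2.73 and 2.48 and 10.1, 9.72 and 9.84 CPM, and MT1F at 3.5, 3.81 and 2.9 and 8.93, 10.2 and 8.52 CPM. The groups did not overlap, and the log2 changes were 1.32 ± 0.0764, 2.00 ± 0.14 and 1.44 ± 0.182. MT1A, MT1B, MT1E, MT1G, MT1H, MT1M and MT3 had no reads in any of the 6 libraries. These genes are near copies of each other, so reads may be shared among them. The sequence table holds 4 of the 10 promoters, and those of MT2A and MT1X, the 2 measured genes among them, are shown to set out the copies of the site that MTF1 binds. Each line gives the 250 bases before the transcription start from RefSeq (GRCh38.p14), with matches to the metal response element core TGCNCNC on either strand in capitals. MT2A lies at chr16:56608334-56608583 (plus strand) and MT1X at chr16:56682220-56682469 (plus strand).
MT2A: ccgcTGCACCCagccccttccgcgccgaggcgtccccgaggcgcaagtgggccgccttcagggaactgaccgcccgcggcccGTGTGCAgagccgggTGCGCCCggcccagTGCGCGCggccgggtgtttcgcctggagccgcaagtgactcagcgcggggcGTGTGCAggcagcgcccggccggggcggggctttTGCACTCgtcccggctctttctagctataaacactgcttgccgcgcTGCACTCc
MT1X: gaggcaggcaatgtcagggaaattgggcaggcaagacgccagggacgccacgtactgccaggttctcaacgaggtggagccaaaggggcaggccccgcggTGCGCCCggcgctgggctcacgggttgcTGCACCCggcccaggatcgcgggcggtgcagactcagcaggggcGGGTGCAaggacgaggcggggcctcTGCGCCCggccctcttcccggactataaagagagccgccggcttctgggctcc
The MT2A window holds 7 matches and the MT1X window 4, while the windows of MT1H and MT1B, which had no reads with or without ATO, hold 8 and 5. Of 35116 promoter windows of this length, 49.1% hold at least 1 match, 18.6% at least 2 and 1.77% at least 4, so a single match is common and 4 or more are rare. A match is a description of letters and not a measured binding site, and matches to different motifs were searched separately.

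Arsenic enters cells through aquaglyceroporins and glucose carriers, is bound to glutathione and is pumped out by ABCC transporters. Of 10 measured genes of arsenic transport and methylation, 4 rose (40%) and 2 fell (20%), against 21.2% and 19.6% of all tested genes. The aquaglyceroporin gene AQP3 fell from 12.8, 13.6 and 11.6 CPM to 2.74, 1.76 and 3.75 CPM. AQP9, the other arsenite channel gene, had no read in the untreated libraries and was at 0.498, 0.408 and 0.571 CPM with ATO, at least 20.7-fold above the floor that 3 counts over the group allow (0.0238 CPM). The unit counted is not given, and this bound would be lower if both reads of a fragment were counted. The export pump gene ABCC1 rose (0.40 ± 0.0707) and ABCC2 fell (-1.30 ± 0.233, 3.88 to 1.58 CPM). The glutathione transferase genes GSTP1 (332 to 548 CPM, 0.72 ± 0.0749) and GSTO1 (0.32 ± 0.0779) rose, and the glucose carrier gene SLC2A1 did not pass (-0.15 ± 0.0904). ABCB1, ABCC3 and AQP7 had no reads. The arsenic methyltransferase gene AS3MT had almost none, although 96.8% of its exon bases are shared with a read-through gene.

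NRF2 is held in the cytoplasm for destruction by KEAP1 and acts on DNA with small MAF partners. Of 11 genes of this circuit, 4 rose (36.4%) and 2 fell (18.2%), against 21.2% and 19.6% of all tested genes. The mRNA of NRF2 itself, NFE2L2, fell from 106, 98.8 and 105 CPM to 58.3, 56.9 and 58 CPM (-0.84 ± 0.0679), and no ATO library reached the lowest untreated one. MAFG (0.33 ± 0.0707) and MAFF (0.88 ± 0.175) rose, as did SQSTM1, the autophagy receptor that traps KEAP1 (77.3 to 179 CPM, 1.21 ± 0.0841). In glutathione synthesis and use, 9 rose (39.1%) and 5 fell (21.7%) among 23 measured genes, a median log2 change of 0.14. GCLM, the modifier subunit of the rate-limiting ligase, went from 60.5, 65.3 and 59.7 CPM to 97.2, 89.8 and 93.3 CPM (0.60 ± 0.0729), whereas the catalytic subunit gene GCLC did not pass (0.13 ± 0.0795). Glutathione reductase (GSR, 0.39 ± 0.0651) rose. The cystine importer pair SLC7A11 and SLC3A2 fell, from 48.6 to 36.2 CPM (-0.42 ± 0.0955) and 201 to 153 CPM (-0.39 ± 0.0666), and so did the peroxidase gene GPX1 (-0.53 ± 0.0805).

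The promoter of GCLM is shown for the antioxidant response element, the site of NRF2 and its MAF partner. It covers chr1:93909431-93909680 (minus strand, RefSeq, GRCh38.p14), and the match to TGACNNNGCA on either strand is in capitals.
GCLM: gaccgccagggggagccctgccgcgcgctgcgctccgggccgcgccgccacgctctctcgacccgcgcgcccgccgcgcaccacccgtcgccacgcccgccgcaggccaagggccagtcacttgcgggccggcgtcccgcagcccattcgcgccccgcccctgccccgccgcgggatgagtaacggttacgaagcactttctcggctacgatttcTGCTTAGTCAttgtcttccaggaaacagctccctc
The match ends 25 bases before the start. Of all promoter windows, 2.59% hold this core. In the glutathione list 3 of the 18 members in the sequence table hold it, GCLM, GSTO1 and GSTP1, and each of these 3 rose. In the thioredoxin and peroxiredoxin list 1 of 15 holds it, TXNRD1, which did not pass (0.09 ± 0.0509). A gene counts here where any of its windows holds the site. Of all measured glutathione genes 9 of 23 rose (39.1%), and a tie of the site to direction was not tested.

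The thioredoxin system reduces protein disulfides, and peroxiredoxins remove peroxides. Of 20 members, 9 rose (45%), 5 fell (25%) and 6 did not pass (median 0.14), with 11 rises and 3 falls under library sizes alone. Over all tested genes 21.2% rose and 19.6% fell. TXNRD1, whose selenium site arsenic can bind, had 406, 419 and 422 CPM and then 450.5, 436 and 444 CPM, and did not pass (0.09 ± 0.0509). TXN (-0.06 ± 0.0582) and PRDX1 (-0.09 ± 0.0569) did not pass either. Mitochondrial members moved apart: TXNRD2 (0.53 ± 0.0949) and PRDX5 (85.2 to 150.4 CPM, 0.82 ± 0.0818) rose, while PRDX3 (-0.36 ± 0.0538) and SOD2 (-0.38 ± 0.0696) fell. MSRB1, a methionine sulfoxide reductase, rose from 57.6 to 116 CPM (1.01 ± 0.0799). SRXN1, which repairs peroxiredoxins, rose from 1.91 to 3.21 CPM (0.75 ± 0.229), with 85% of its exon bases shared with another gene.

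Haem breakdown frees iron, which ferritin stores. Of 20 measured members of the haem and iron list, 11 rose and 2 fell. The haem transporter gene SLC48A1 (HRG1) went from 22.1, 22.9 and 25.5 CPM to 96.5, 96.5 and 95.3 CPM (2.03 ± 0.0678), the groups far apart. Ferritin light chain FTL was at 1472, 1486 and 1554 CPM and then 2792, 2794 and 2831 CPM, and heavy chain FTH1 at 641, 661 and 689 CPM and then 1338, 1307 and 1341 CPM (0.90 ± 0.0614 and 1.00 ± 0.0731). Both have many processed pseudogenes, and 62.4% of FTH1 exon bases overlap BEST1 on the other strand, so their exact levels are uncertain. Biliverdin reductase BLVRB rose (1.07 ± 0.17), and the transferrin receptor gene TFRC fell from 827, 816 and 781 CPM to 475, 478 and 449 CPM (-0.79 ± 0.0711), below every untreated library. The oxidation defence systems draw on NADPH, and 8 of 12 genes of its supply rose with none lower. PGD (324 to 570.1 CPM, 0.82 ± 0.0638), TKT (471 to 889 CPM, 0.92 ± 0.0644) and TALDO1 (0.50 ± 0.0624) of the pentose phosphate pathway and malic enzyme ME1 (0.84 ± 0.0842) were among them. RPIA (-0.14 ± 0.0707), RPE (-0.06 ± 0.0658), PGLS (0.16 ± 0.0888) and ME2 (0.07 ± 0.058) did not pass. With library sizes alone 10 of these supply genes rose. With only the groups compared 9 rose and 1 fell, RPIA (-0.13, adjusted p = 0.0493).

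Chaperones moved the other way. Of 18 measured cytosolic heat shock genes, 1 rose, 9 fell and 8 did not pass, a median log2 change of -0.14. The stress-inducible HSP90 gene HSP90AA1 was at 4580, 3975 and 3597 CPM in untreated and 2532, 2520 and 2439 CPM in ATO cells (-0.70 ± 0.0896). HSPA4L (-0.75 ± 0.0835), CHORDC1 (-0.55 ± 0.0831), HSPA4 (-0.39 ± 0.0635) and the constitutive HSP70 gene HSPA8 (-0.32 ± 0.0537) fell too. BAG3, a co-chaperone of selective autophagy, was the 1 rise (0.49 ± 0.0846). DNAJB1 (0.00 ± 0.0651) and the factor gene HSF1 (0.03 ± 0.102) did not pass. The inducible HSP70 genes HSPA1A and HSPA1B had almost no reads, and as near-identical copies they cannot be read from these counts.

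In the endoplasmic reticulum (ER), 17 of 24 chaperones and folding enzymes fell, 1 rose and 6 did not pass, a median log2 change of -0.29. HSP90B1 (GRP94) was at 2339, 2068 and 1951 CPM and then 1024, 1034 and 1017 CPM (-1.05 ± 0.0787). HSPA5 (BiP), the master chaperone of the ER lumen, was at 1614, 1645 and 1593 CPM and then 819, 806 and 851 CPM (-0.97 ± 0.0589). For both, the highest ATO library lay below the lowest untreated one. CALR (6079 to 3715 CPM, -0.71 ± 0.0575), DNAJB9 (-0.79 ± 0.133), HYOU1 (-0.57 ± 0.06), MANF (-0.57 ± 0.0624), PDIA6 (-0.53 ± 0.0539), PDIA4 (-0.52 ± 0.0595) and CANX (-0.38 ± 0.0525) fell as well, and ERP44 was the 1 rise (0.27 ± 0.0615). Of 15 stress sensors and degradation genes of the ER, 5 rose and 2 fell (8 and 1 with library sizes alone). XBP1 mRNA fell from 157 to 99.5 CPM (-0.66 ± 0.0753), ERN1 (IRE1) rose from 4.44 to 7.88 CPM (0.83 ± 0.135), and EIF2AK3 (PERK, -0.04 ± 0.0896) and ATF6 (-0.04 ± 0.0635) did not pass. Splicing of XBP1 was not measured.

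The promoters of HSPA5, HSP90B1 and HSP90AA1 are shown because they carry the sites by which ER stress and heat shock are known to act on these genes. The ER stress response element was searched as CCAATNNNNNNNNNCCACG and the heat shock element as GAA, TTC and GAA with 2 bases between each, on both strands, and matches are in capitals. The windows, from RefSeq (GRCh38.p14), are chr9:125241344-125241593 (minus strand), chr12:103930160-103930409 (plus strand) and chr14:102087045-102087294 (minus strand).
HSPA5: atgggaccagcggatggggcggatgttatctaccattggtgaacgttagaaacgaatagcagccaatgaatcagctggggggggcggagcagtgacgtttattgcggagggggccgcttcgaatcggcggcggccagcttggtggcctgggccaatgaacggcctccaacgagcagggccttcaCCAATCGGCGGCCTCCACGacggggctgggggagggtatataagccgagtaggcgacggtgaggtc
HSP90B1: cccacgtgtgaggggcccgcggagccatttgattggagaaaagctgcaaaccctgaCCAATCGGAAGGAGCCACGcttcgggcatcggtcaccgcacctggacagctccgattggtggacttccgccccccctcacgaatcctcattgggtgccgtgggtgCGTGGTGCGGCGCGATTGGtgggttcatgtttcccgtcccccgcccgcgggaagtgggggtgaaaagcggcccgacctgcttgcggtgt
HSP90AA1: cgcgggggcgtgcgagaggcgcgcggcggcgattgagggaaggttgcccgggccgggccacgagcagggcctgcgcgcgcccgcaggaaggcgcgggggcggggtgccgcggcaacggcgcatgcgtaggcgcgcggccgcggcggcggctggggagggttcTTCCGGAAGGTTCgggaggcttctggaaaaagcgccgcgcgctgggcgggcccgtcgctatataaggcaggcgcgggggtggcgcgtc
The HSPA5 window holds 1 match to the ER stress element and the HSP90B1 window 2, and the HSP90AA1 window shown holds 1 match to the heat shock element. HSP90AA1 has 2 windows in the sequence table, and the window with the most matches was chosen. In the counts of members below, a gene counts where any of its windows holds the site, while the shares are per window. Only 26 of 35116 windows (0.074%) hold the ER stress element. Among the 23 ER chaperones in the table, 7 hold it: CALR, CANX, CRELD2, HSP90B1, HSPA5 and PDIA6, which fell, and ERO1B, which did not pass (-0.06 ± 0.138). XBP1 holds it as well. Over the whole ER chaperone list 17 of 24 genes fell (70.8%), and a tie of the site to direction was not tested. The heat shock element is in 155 windows (0.441%) and in 5 of 21 cytosolic heat shock genes in the table, CHORDC1, DNAJB6, HSP90AA1, HSP90AB1 and HSPA8. CHORDC1, HSP90AA1 and HSPA8 fell. DNAJB6 (-0.18 ± 0.0606) and HSP90AB1 (-0.14 ± 0.0497) were called lower too, but these calls were not firm. With library sizes alone they were at -0.07 (adjusted p = 0.347) and -0.03 (0.631), and the adjusted p was up to 0.0857 (without untreated library 2) and 0.0913 (without ATO library 3) when single libraries were left out.

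**Figure D3:**
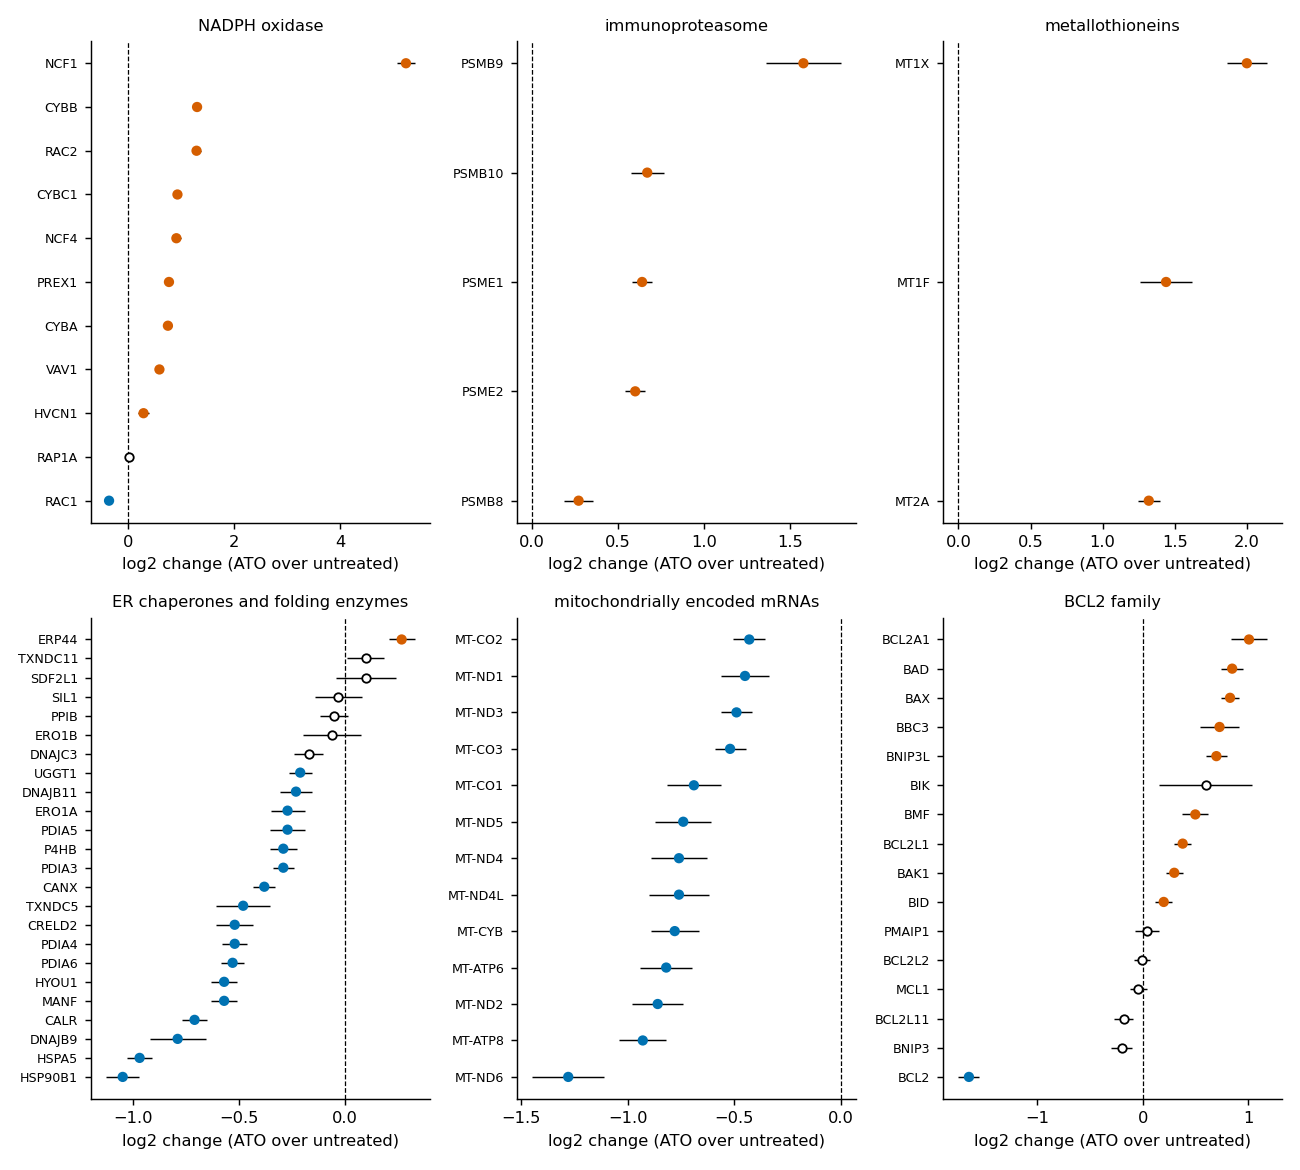
Log2 change with ATO in NB4 cells (points, with bars of 1 standard error) for the measured members of 6 gene groups (of the oxidase genes, those named in the text). Filled points were called (orange higher, blue lower), open points were not, and the dashed line marks 0. All 5 immunoproteasome genes rose, while 17 of 24 ER chaperones and all 13 mitochondrial mRNAs fell.

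Of 25 measured target genes of ATF4, a factor of the integrated stress response, 6 rose (24%), 7 fell (28%) and 12 did not pass. Over all tested genes the shares were 21.2% and 19.6%, so this list lay not far from them. Its median was 0.02, and with library sizes alone 8 rose and 7 fell. TRIB3 (80.1 to 129 CPM, 0.69 ± 0.117), CEBPB (1.64 ± 0.0972) and PHGDH (0.41 ± 0.0892) rose. DDIT4, an inhibitor of mTORC1, fell from 57.9, 45.6 and 65.9 CPM to 33.5, 35.3 and 33.1 CPM (-0.73 ± 0.131), with 41.2% of its exon bases overlapped by an antisense gene, and the leucine carrier gene SLC7A5 fell from 468 to 323 CPM (-0.54 ± 0.0784). ATF4 itself (0.02 ± 0.063), PSAT1 (-0.08 ± 0.0696), and CHAC1, at 0.0668 to 0.125 CPM, did not pass.

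Protein destruction showed rises of small size. Of 31 constitutive proteasome subunits, 13 rose, 4 fell and 14 did not pass (median 0.12), with PSMD13 (0.43 ± 0.0591) and PSMD4 (0.36 ± 0.0715) higher. None fell without untreated library 1 or ATO library 1, 2 without untreated library 2 and 1 without ATO library 3, and with library sizes alone 22 rose and none fell. All 5 genes of the immunoproteasome, the form that cuts peptides for MHC class I, rose. PSMB9 was at 1.23, 0.801 and 2.08 CPM and then 4.53, 4.74 and 3.25 CPM (1.58 ± 0.218), PSMB10 went from 10.4 to 16.6 CPM (0.67 ± 0.0965), PSME1 from 88.5 to 138 CPM (0.64 ± 0.0591), PSME2 from 84.3 to 128 CPM (0.60 ± 0.057) and PSMB8 from 36.4 to 44 CPM (0.27 ± 0.0852). The call of PSMB8 was lost without untreated library 1 (adjusted p = 0.0554) or ATO library 3 (0.0908). In autophagy, 17 of 29 measured genes rose and 4 fell (median 0.26, 2 falls with library sizes alone). GABARAPL1 went from 18.1 to 37.6 CPM (1.05 ± 0.0737), MAP1LC3B from 43.5 to 75.7 CPM (0.80 ± 0.0774) and ATG7 from 27.1 to 49.5 CPM (0.87 ± 0.0792), while the initiation gene RB1CC1 fell (-0.39 ± 0.0934). Of 33 lysosomal genes, 24 rose and 4 fell (median 0.46, 2 falls with library sizes alone). TPP1, a lysosomal peptidase, was at 92.9, 82.7 and 88.8 CPM and then 210.2, 205 and 197 CPM (1.21 ± 0.0654). The saposin precursor gene PSAP (374 to 653 CPM, 0.80 ± 0.0557), CTSZ (0.85 ± 0.0676) and CTSD (1.56 ± 0.0736) rose, the last with 52.7% of its exon bases shared with other genes. Cathepsin H (CTSH) fell from 124, 124 and 139 CPM to 71.7, 67.1 and 66.6 CPM (-0.91 ± 0.0872).

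Neutrophil maturation adds the NADPH oxidase, adhesion receptors and later granules in turn. Of the 12 oxidase genes, 10 rose, 1 fell and 1 did not pass, a median log2 change of 0.84. The membrane subunit genes CYBB (215, 224 and 199.5 CPM, then 519, 534 and 513 CPM) and CYBA (102 to 171 CPM) rose by 1.30 ± 0.0666 and 0.75 ± 0.0754, and their chaperone gene CYBC1 by 0.93 ± 0.0761. The cytosolic subunit gene NCF4 rose from 20.8 to 39.1 CPM (0.91 ± 0.0872). The GTPase gene of the neutrophil oxidase, RAC2, was at 65.4, 67.5 and 71.2 CPM and then 166, 171 and 164 CPM (1.29 ± 0.076), while its ubiquitous relative RAC1 was the 1 fall (-0.36 ± 0.0564). The exchange factor genes VAV1 (0.59 ± 0.0648) and PREX1 (0.77 ± 0.0835) and the proton channel gene HVCN1 (0.29 ± 0.0983) rose, and RAP1A did not pass (0.02 ± 0.0704). The call of HVCN1 was lost without any 1 of 5 of the 6 libraries, with adjusted p of 0.0515 to 0.0649.

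Signalling genes of mature myeloid cells rose alongside. Of 20 Src-family kinases and partners, 14 rose and none fell (median 0.56). Next to FGR and PRAM1 these included PIK3R5 (1.01 to 3.71 CPM, 1.89 ± 0.148), SKAP2 (1.00 ± 0.0786), PIK3CG (0.79 ± 0.0616), LCP2 (0.67 ± 0.063), PTPN6 (0.61 ± 0.0624) and SYK (0.41 ± 0.06). BTK (0.10 ± 0.0566) did not pass. Of 36 measured surface receptors, 26 rose and 3 fell (median 0.92). CXCR2, the receptor of neutrophil chemokines, was at 2.17, 3.21 and 3.03 CPM and then 14.5, 13.3 and 14.1 CPM (2.32 ± 0.126). The adaptor gene TYROBP (2.44 to 10.6 CPM, 2.10 ± 0.149), CSF2RB (8.09 to 20 CPM, 1.30 ± 0.103) and CD52 (1.12 to 15.5 CPM, 3.78 ± 0.161) rose. The chemokine receptor genes of marrow homing and exit, CXCR4 (41 to 25.9 CPM, -0.66 ± 0.106) and CCR2 (1.77 to 0.24 CPM, -2.87 ± 0.57), fell.

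Adhesion genes moved in both directions. Of 22 measured adhesion genes, 11 rose and 4 fell (median 1.10, or 0.84 with genes that had no reads in 1 group set at the floor of 3 counts). The beta-2 partner genes ITGAM (CD11b, 8.21, 7.39 and 7.53 CPM, then 22.8, 24.2 and 22.2 CPM), ITGAX (CD11c, 5.86 to 28.7 CPM), ITGAL (6.68 to 13.8 CPM) and ITGB2 (62.5 to 105 CPM) rose by 1.58 ± 0.0875, 2.29 ± 0.105, 1.04 ± 0.0985 and 0.75 ± 0.102. The 4 falls were of the integrin genes ITGA4 (440.2 to 248 CPM, -0.83 ± 0.074), ITGA5 (-0.56 ± 0.0639), ITGA6 (-1.60 ± 0.154) and ITGB1 (-0.48 ± 0.0696), while the integrin gene ITGA2B rose, as given above. ICAM1 (7.09 to 30.9 CPM, 2.12 ± 0.163), FERMT3, the integrin activator kindlin-3 (95.8 to 255 CPM, 1.41 ± 0.0692), PECAM1 (1.18 ± 0.0718) and SELPLG (1.16 ± 0.0965) rose.

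Granule genes did not move as one. Of 15 measured primary granule genes, 7 rose, 5 fell and 3 did not pass (median 0.21). The defensin gene DEFA4 was at 6.83, 5.99 and 6.1 CPM and then 59.4, 58.5 and 60.9 CPM (3.24 ± 0.0817), BPI rose from 0.251 to 3.19 CPM (3.64 ± 0.263) and the protease inhibitor gene SERPINB1 from 10.8 to 32.4 CPM (1.58 ± 0.0929). MPO, the myeloperoxidase gene, fell from 9245, 9133 and 9807 CPM to 7510, 7534 and 7443 CPM (-0.33 ± 0.0718), and AZU1 (-0.63 ± 0.0946) and the ribonuclease gene RNASE2 (-0.96 ± 0.0626) fell with CTSG. Of 15 measured secondary and tertiary granule genes, 4 rose, 1 fell and 10 did not pass. LTF (0.0146 to 0.0544 CPM) and MMP8 (0.0329 to 0.0429 CPM) did not pass, and LCN2, CD177 and CEACAM8 had no reads. FCN1 (1.11 ± 0.0874), ADAM8 (1.07 ± 0.17) and HP (0.77 ± 0.218) rose, and MMP9 fell (-1.14 ± 0.133). Of 10 S100 genes 7 rose and none fell, or 1 fell without ATO library 3 (median 1.14, or 0.76 with S100A12 at its floor). S100A9, which forms calprotectin with S100A8, was at 1.43, 1.9 and 1.36 CPM and then 14.4, 13.8 and 15.7 CPM (3.23 ± 0.202), and S100A8 rose from 0.392 to 2.12 CPM (2.42 ± 0.298). Of 10 measured genes of leukotriene and prostaglandin synthesis, 4 rose and 2 fell. The activating protein gene ALOX5AP was at 1.48, 1.3 and 1.23 CPM and then 17.3, 21 and 16.9 CPM (3.78 ± 0.138), while ALOX5, the enzyme it serves, had no reads in the 6 libraries.

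Transcription factors of the lineage split. Of 30 measured, 9 rose, 10 fell and 11 did not pass (median -0.10). With library sizes alone 10 rose and 9 fell, and without untreated library 3, ATO library 1 or ATO library 3 9 rose and 8 fell. CEBPE, the factor of granulocyte maturation, was at 66.5, 67 and 67.1 CPM and then 131, 132 and 139 CPM (1.00 ± 0.0718), and CEBPB (7.78 to 24.3 CPM) and ID2 (1.83 to 8.56 CPM, 2.23 ± 0.162) rose. CEBPA did not pass (-0.12 ± 0.0882). JUN (7.35, 5.46 and 7.63 CPM, then 1.25, 1.9 and 2.33 CPM), GFI1 (-0.67 ± 0.0704), ETV6 (-0.64 ± 0.0667) and MYB (-0.50 ± 0.0647) fell. Of 15 measured stem and progenitor genes, 10 fell and 1 rose (median -0.47), with WT1 (97.8 to 61.3 CPM, -0.67 ± 0.11) and HOXA10 (-0.37 ± 0.0747) next to CYTL1, FLT3 and TERT. The single rise was CD33 (0.25 ± 0.0675). CD34, KIT and PROM1 had almost no reads.

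Retinoid target genes are among those that PML-RARA silences. Of 16 measured genes of this class 6 rose (37.5%) and 3 fell (18.8%), with 3 rises left without untreated library 2 or ATO library 2. The receptor gene RARA was at 26.1, 25.2 and 26.9 CPM and then 24.9, 25.6 and 26.7 CPM and did not pass (-0.02 ± 0.0926). Gene counts do not separate reads of the fusion transcript from those of the normal genes. PML rose from 59.8 to 81.4 CPM (0.44 ± 0.0655). Of the 25 genes of PML bodies and the SUMO pathway, 4 rose (16%), 6 fell (24%) and 15 did not pass (median -0.08). Over all tested genes 21.2% rose and 19.6% fell. With library sizes alone 5 of the 25 genes rose and 4 fell. SP140 (1.40 ± 0.221) and SP110 (0.43 ± 0.0759) rose, and ATRX (-0.43 ± 0.116), SENP6 (-0.39 ± 0.0913) and the SUMO-activating subunit gene UBA2 (-0.40 ± 0.063) fell. The SUMO-targeted ubiquitin ligase gene RNF4, which acts on PML, did not pass (0.04 ± 0.0595). Among direct retinoid targets, DHRS9 (23 to 75.6 CPM, 1.72 ± 0.0678) and STRA6 (0.80 ± 0.203) rose, and DHRS3 fell (-1.53 ± 0.289). CYP26B1 went from 0.185 CPM in untreated cells to no reads with ATO. RARB had no reads in the 6 libraries, and CYP26A1 had 0.0164 to 0.0361 CPM.

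**Figure D4:**
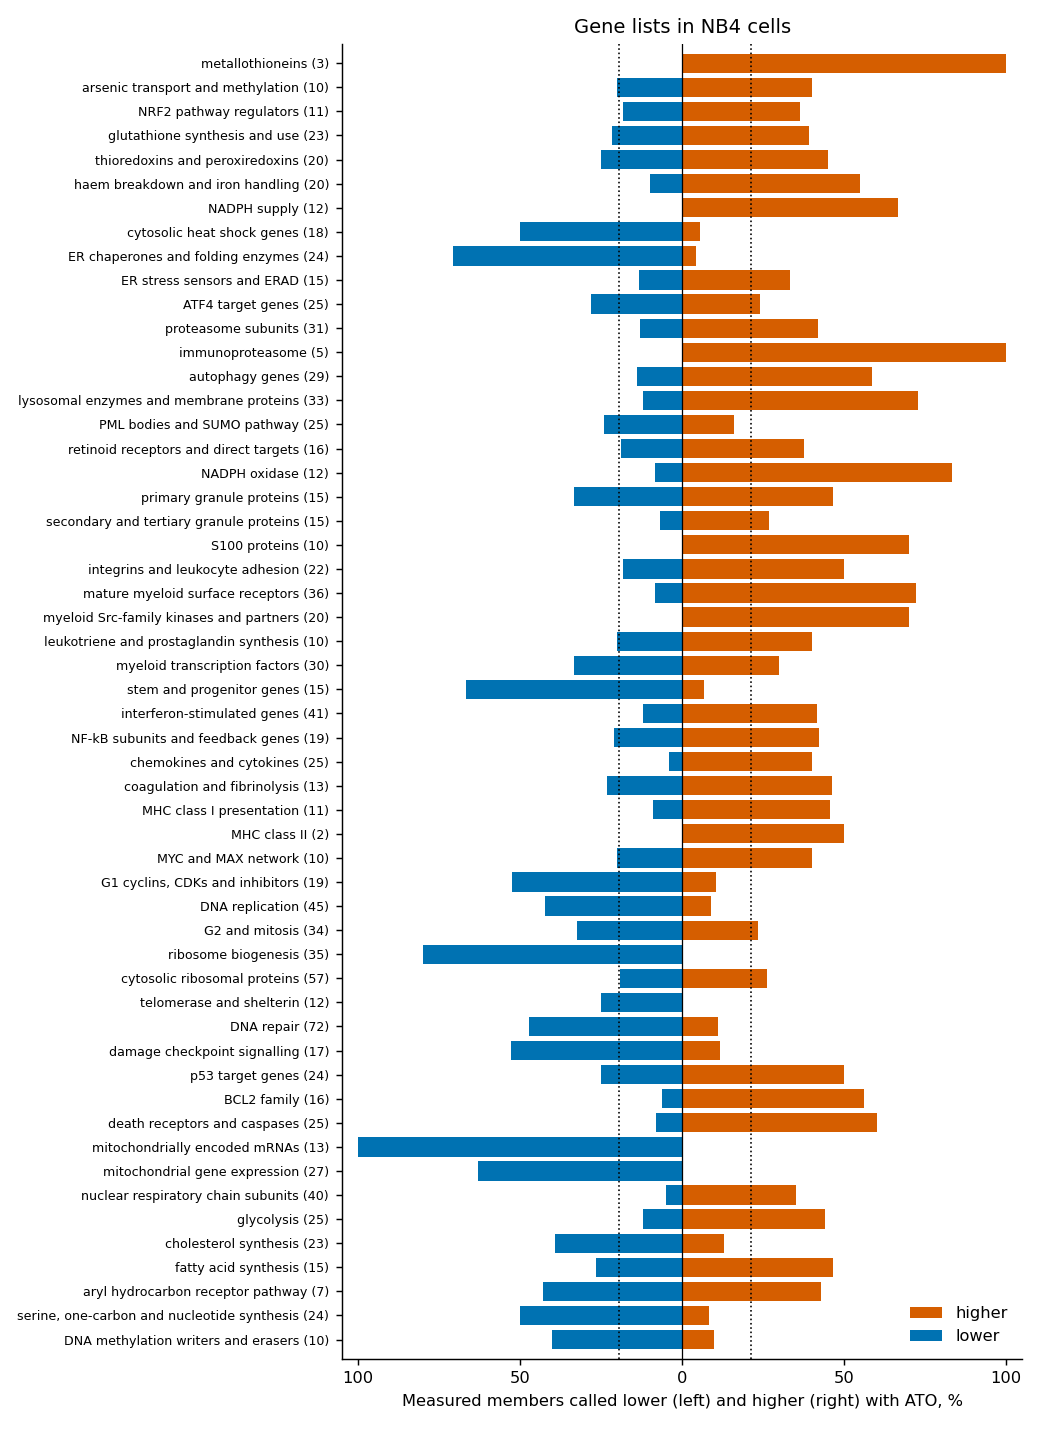
Share of measured members called higher (orange, right) and lower (blue, left) with ATO in NB4 cells, in percent, for each of the 54 gene lists. Dotted lines mark the shares over all tested genes, 21.2% higher and 19.6% lower. The number of measured members stands beside each name.

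Interferon and antigen presentation genes rose in part. Of 41 measured interferon-stimulated genes, 17 rose, 5 fell and 19 did not pass (median 0.24), with 3 falls left without ATO library 1 or 3. IFI16 (1.96 to 7.92 CPM, 2.02 ± 0.163), OAS3 (2.27 to 8.67 CPM, 1.94 ± 0.114), DTX3L (1.03 ± 0.0724) and BST2 (0.90 ± 0.0688) rose, and IFIT1 (-1.01 ± 0.18) fell. MHC class I presentation had 5 rises and 1 fall among 11 measured members. NLRC5, the transactivator of class I genes, went from 69.3, 74.5 and 77 CPM to 130, 135 and 122 CPM (0.81 ± 0.0791), and the peptide trimming gene ERAP2 (63.1 to 114 CPM, 0.86 ± 0.0812) and the editor gene TAPBPL (1.48 ± 0.149) rose. HLA-C did not pass (0.13 ± 0.158), and B2M was the 1 fall (-0.18 ± 0.0567, lost with library sizes alone, -0.07, adjusted p = 0.313, and without untreated library 1 or ATO library 1 or 2, adjusted p = 0.0556 to 0.0739). HLA genes vary between people and resemble each other, so their counts are uncertain. CD74 rose from 0.0645 to 0.996 CPM (3.91 ± 0.31), still close to 1 CPM. Chemokine and cytokine genes had 10 rises and 1 fall among 25, mostly at low levels, such as CCL2 (1.91 to 5.81 CPM, 1.60 ± 0.138), CCL23 (0.0978 to 1.5 CPM, 3.93 ± 0.353) and IL1B (0.576 to 2.12 CPM, 1.84 ± 0.264). In the NF-kB list 8 of 19 rose and 4 fell, with NFKB2 (0.68 ± 0.134) higher and TNFAIP3 (-0.77 ± 0.138) lower.

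The coagulation list bears on the bleeding disorder of APL, in which tissue factor and plasmin formation take part. Tissue factor, F3, was at 26, 24.9 and 24.8 CPM in untreated and 6.19, 5.72 and 7.05 CPM in ATO cells, with no overlap (-2.00 ± 0.144). ANXA2, a plasminogen receptor subunit, rose from 37.2, 34.6 and 37.9 CPM to 87.2, 84.5 and 89.8 CPM (1.25 ± 0.0809), and so did the protein C receptor gene PROCR (0.99 to 5.27 CPM, 2.41 ± 0.181) and the activator gene PLAU (0.58 ± 0.0757), 31.1% of whose exon bases overlap another gene. Over the list of 13 measured genes there were 6 rises and 3 falls.

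Growth and division genes moved in both directions. Of 10 measured members of the MYC and MAX network, 4 rose and 2 fell. MYC went from 538, 560.5 and 604 CPM to 320.2, 316 and 326 CPM (-0.82 ± 0.0679), the groups apart, while the antagonist genes MXD4 (0.61 ± 0.0931) and MNT (0.55 ± 0.0901) rose. Of 35 ribosome assembly genes 28 fell and none rose (median -0.39), with GNL3 (357 to 193 CPM, -0.89 ± 0.0886), NPM1 (3107, 3019 and 2874 CPM, then 1710, 1913 and 1729 CPM, -0.75 ± 0.0669), NCL (-0.68 ± 0.0623) and GAR1 (-0.58 ± 0.0801). Over all tested genes 21.2% rose and 19.6% fell. Of 57 ribosomal protein genes 15 rose (26.3%), 11 fell (19.3%) and 31 did not pass (median 0.11). That balance is not firm: 6 rose and 8 fell without untreated library 1, 7 and 10 without untreated library 2, 7 and 8 without ATO library 1, and 8 and 10 without ATO library 2, against 33 and 5 with library sizes alone. In purine, pyrimidine and one-carbon synthesis 12 of 24 fell and 2 rose (median -0.16), among them PPAT, the first committed purine enzyme (189.8 to 108 CPM, -0.81 ± 0.0756), CAD (-0.52 ± 0.0722) and PAICS (-0.50 ± 0.0549), with PHGDH and IMPDH2 (0.26 ± 0.0648) higher. Of 19 measured G1 regulators, 10 fell and 2 rose: CCNE2 (30.8 to 17.3 CPM, -0.83 ± 0.121), CCND2 (165 to 107 CPM, -0.62 ± 0.0646) and CDK6 (-0.47 ± 0.0814) fell, and CCND3 (0.42 ± 0.0631) and the inhibitor gene CDKN2D (8.14 to 14.4 CPM, 0.82 ± 0.129) rose. CDKN1A (p21) had only 0.767 to 0.533 CPM and did not pass.

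DNA replication genes had 19 falls and 4 rises among 45 (median -0.10), a balance that was level at 12 and 12 with library sizes alone. MCM7 stood out, at 744, 764 and 789.7 CPM and then 289, 289.9 and 301 CPM (-1.38 ± 0.0642), while MCM2 did not pass (0.14 ± 0.0676) and MCM4 fell by less (-0.38 ± 0.0582). MCM2 was called higher with library sizes alone (0.25, adjusted p = 0.00355) and with only the groups compared (0.14, 0.00419). In G2 and mitosis 11 of 34 fell (32.4%) and 8 rose (23.5%), against 19.6% and 21.2% of all tested genes. With library sizes alone 14 rose and 5 fell. Without untreated library 1 or 2 or ATO library 1 or 3, 6 to 7 fell. CCNA2 (-0.31 ± 0.0624) was lower and CCNB2 (0.34 ± 0.0572) and UBE2C (0.41 ± 0.0754) were higher. Of 72 DNA repair genes, 34 fell, 8 rose and 30 did not pass (median -0.22, 26 falls and 17 rises with library sizes alone), and of 17 checkpoint genes 9 fell and 2 rose (median -0.26, with 1 rise left without any 1 of 5 libraries). Repair falls included SHLD2, a shieldin subunit (156 to 83.5 CPM, -0.90 ± 0.0858), USP1, a deubiquitinase of the Fanconi pathway (-0.69 ± 0.0826), the uracil glycosylase gene UNG (201 to 129 CPM, -0.64 ± 0.0651) and XRCC2 (-0.59 ± 0.0818). DDB2 (0.61 ± 0.089), ERCC2 (0.47 ± 0.083), OGG1 (0.40 ± 0.0821) and TP53BP1 (0.29 ± 0.0632) rose. The kinase genes ATR (-0.49 ± 0.116), WEE1 (-0.42 ± 0.0735) and CHEK1 (-0.35 ± 0.078) fell, and ATM did not pass (-0.19 ± 0.0884). In a fit of only the groups compared ATM was called lower (-0.18, adjusted p = 0.00626). Of 10 DNA methylation writers and erasers 4 fell and 1 rose (2 and 1 with library sizes alone). The methyltransferase gene DNMT3B fell from 59, 54.5 and 60.9 CPM to 30, 25.4 and 28.3 CPM (-1.06 ± 0.0825) and DNMT3A rose (0.52 ± 0.0707).

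Death genes tilted upward. BCL2, the survival gene, was at 70.7, 83.2 and 74 CPM in untreated and 24.8, 23.1 and 24.9 CPM in ATO cells (-1.65 ± 0.0997), each ATO library under every untreated one. It was the 1 fall among 16 measured BCL2 family members, of which 9 rose: BAX (41.2 to 73.3 CPM, 0.83 ± 0.0864), BAD (11.6 to 20.8 CPM, 0.85 ± 0.107), BBC3 (0.73 ± 0.187), BMF (0.50 ± 0.123), BAK1 (0.30 ± 0.0789) and BID (0.20 ± 0.0811) on the side of death, BNIP3L (0.70 ± 0.0988) of mitophagy, and the survival genes BCL2A1 (2.77 to 5.56 CPM, 1.01 ± 0.171) and BCL2L1 (0.38 ± 0.0797). MCL1 (-0.04 ± 0.0786), BCL2L11 (-0.18 ± 0.0877) and PMAIP1 (0.04 ± 0.114) did not pass. The BID call was lost without any 1 of 5 of the 6 libraries (adjusted p = 0.0717 to 0.237) and with DESeq2 (0.0605). Among 25 measured death receptors and caspases 15 rose and 2 fell (median 0.40), with CASP1 (3.44 to 7.98 CPM, 1.22 ± 0.136), CASP9 (1.07 ± 0.0961), CASP8 (0.59 ± 0.0742) and TNFRSF10B (0.69 ± 0.0898) higher and the ligand gene TNFSF10 (7.99 to 3.96 CPM, -1.01 ± 0.145) and XIAP (-0.39 ± 0.0671) lower. Of 24 measured p53 target genes, 12 rose and 6 fell, the falls including MDM2 (-0.51 ± 0.0677) and TRIAP1 (-0.55 ± 0.0783), so the list did not move as one.

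All 13 mRNAs of the mitochondrial genome fell, with log2 changes from -1.28 to -0.43 and a median of -0.76. MT-ND6, the 1 mRNA of the light strand, fell by the most, from 708, 485 and 491 CPM to 239, 286 and 167 CPM (-1.28 ± 0.169), and MT-CO1 went from 14010, 9645 and 10660 CPM to 7412, 8224 and 5656 CPM (-0.69 ± 0.127). Nuclear genes that express this genome also fell, 17 of 27 with none higher (median -0.27, 11 and 1 with library sizes alone), among them the DNA-packaging factor TFAM (-0.52 ± 0.0868), MTIF2 (-0.66 ± 0.0893) and MRPL3 (-0.56 ± 0.0661). Nuclear subunits of the respiratory chain had 14 rises and 2 falls among 40 (median 0.10), and 7 to 9 rises without untreated library 2 or ATO library 1 or 3, with COX5B (0.47 ± 0.0753) and NDUFS8 (0.42 ± 0.0853). In glycolysis 11 of 25 rose and 3 fell. The hexokinase genes HK1 (4.86 to 16.9 CPM, 1.80 ± 0.131) and HK3 (0.0793 to 1.33 CPM, 4.01 ± 0.359) rose, and HK2 (303 to 196 CPM, -0.63 ± 0.0674) fell. PKM (1318 to 2171 CPM, 0.72 ± 0.0675) and the lactate exporter gene SLC16A3 (0.81 ± 0.0788) rose, and LDHA fell (-0.47 ± 0.066). Cholesterol synthesis had 9 falls and 3 rises among 23 (median -0.02; 6 falls and 7 rises with library sizes alone, and 1 rise without untreated library 2 or ATO library 2 or 3), with HMGCS1 (-0.47 ± 0.103) and INSIG1 (-0.46 ± 0.0881) lower, and in fatty acid synthesis 7 of 15 rose and 4 fell (2 without untreated library 1 or 3 or ATO library 1 or 3, and with library sizes alone), among them the desaturase gene SCD (1567 to 1026 CPM, -0.61 ± 0.0667). In the aryl hydrocarbon receptor pathway 3 of 7 measured genes rose and 3 fell. CYP1A1 rose from 0.869 to 3.48 CPM (1.98 ± 0.251), AHRR (-0.51 ± 0.109) and TIPARP (-0.41 ± 0.0938) fell with CYP1B1.

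HL-60 cells were given the same dose for the same time, with 4554 of 15895 tested genes called (28.7%), 2625 higher (16.5%) and 1929 lower (12.1%). Of 14562 genes tested in both lines, 1464 rose in both, 45.3% of the NB4 and 60.7% of the HL-60 rises among them, and 1310 fell in both, 41.4% of the NB4 and 69.9% of the HL-60 falls. Only 64 NB4 rises were called lower and 99 NB4 falls called higher in HL-60. The changes were larger in NB4 cells for 1077 of the 1200 genes called there with at least a 2-fold change, a set chosen on the NB4 values. The difference between the lines was tested in a fit of all 24 libraries: 2349 of 17930 genes (13.1%) differed, 1274 with the NB4 change the higher (7.11%) and 1075 the lower (6%). With library sizes alone, 70.4% of these differences were on the higher side, against 54.2%.

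Many genes named in this and the next paragraph were chosen for large changes in NB4. The line difference uses the same NB4 libraries, so that choice favours a larger NB4 change. Oxidase and signalling genes were among those with the higher change in NB4. NCF1 went from 17.9 to 54.5 CPM in HL-60, and its log2 change was 3.66 ± 0.194 higher in NB4 (adjusted p = 1.08e-14). PRAM1 barely moved in HL-60 (90 to 108 CPM, 0.26 ± 0.0569), and the difference was 3.72 ± 0.0965. Of the 12 oxidase genes, 9 had the higher change in NB4 and 1 the lower, and of 20 Src-family kinases and partners 14 and none. FGR (2.81 ± 0.225), ALOX5AP (2.79 ± 0.16), TMC8 (3.22 ± 0.151), CD52 (2.55 ± 0.19), CXCR2 (2.35 ± 0.14), CYTH4 (2.30 ± 0.182), ASB2 (2.22 ± 0.259), VSIR (2.15 ± 0.129) and RAC2 (1.16 ± 0.0943) differed in the same way. Of these, FGR went from 5.81 to 27.5 CPM, ALOX5AP from 67.5 to 137 CPM and TMC8 from 109 to 123 CPM in HL-60, from a higher untreated level than in NB4. All 5 immunoproteasome genes differed: PSMB9 fell in HL-60 (-0.43 ± 0.119, adjusted p = 0.0508 without HL-60 ATO library 1, difference 2.04 ± 0.262), as did PSMB8 (-0.26 ± 0.0599, difference 0.56 ± 0.106). NLRC5 had a change of 0.07 ± 0.0535 in HL-60, and the difference was 0.76 ± 0.0971.

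Some genes fell in NB4 and rose in HL-60. CYP1B1 went from 32, 33 and 35 CPM to 38.6, 40.8 and 41.5 CPM in HL-60 (difference -3.60 ± 0.153, adjusted p = 7.07e-17). JUN rose in HL-60 (0.96 ± 0.0809, difference -2.84 ± 0.283), as did MMP2 (31.6 to 87.4 CPM against 9.45 to 2.79 CPM in NB4, difference -3.20 ± 0.179), MTUS1 (0.53 ± 0.0685, difference -2.73 ± 0.177), DDIT4 (1.14 ± 0.0863, difference -1.85 ± 0.175), SLC7A11 (0.48 ± 0.105, difference -0.88 ± 0.154), HMGCS1 (0.45 ± 0.0533, difference -0.90 ± 0.128) and CTSH (0.57 ± 0.0582, difference -1.46 ± 0.108). Of 27 ATF4 targets measured in HL-60, 21 rose and none fell, and 10 of 27 had the lower change in NB4 and 1 the higher. FLT3 (-2.40 ± 0.202), PTPN3 (-2.22 ± 0.159), AHNAK (-1.63 ± 0.119), F3 (-1.53 ± 0.181), BCL2 (-1.08 ± 0.117) and TFRC (-0.71 ± 0.0846) had the lower change in NB4 too.

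HMOX1 rose in both lines. Its change was 6.33 ± 0.12 in HL-60 (0.955 to 76.6 CPM), and the difference of -0.67 ± 0.4 did not pass (adjusted p = 0.316). CYTL1 (-4.90 ± 0.203 in HL-60), CHAT (-3.68 ± 0.206) and TERT (-1.94 ± 0.186) fell in both lines, with differences of -0.92 ± 0.374, 0.44 ± 0.279 and -0.34 ± 0.243 that did not pass. In a fit of only the groups compared the differences of CYTL1 (adjusted p = 0.0475) and CHAT (0.0369) passed, and that of CYTL1 also with DESeq2 (0.0284) and without HL-60 ATO library 3 (0.037). MT2A rose by more in HL-60 (2.03 ± 0.128, difference -0.68 ± 0.157), as did FTH1 (2.53 ± 0.0528, difference -1.50 ± 0.0941) and GCLM (1.26 ± 0.0659, difference -0.64 ± 0.1), while MT1X rose by more in NB4 (difference 0.99 ± 0.22). The 8 largest higher differences by rule were DAPK1, LDLRAD4, NEFH, ACVRL1, IL12RB1, METTL7B, SPEF2 and OAT, genes with reads in HL-60 and none in untreated NB4 cells. METTL7B, SPEF2 and OAT had too few reads for the test within NB4. The NB4 side of all 8 differences rests on at most 52 reads in the 3 ATO libraries together, and the rise was at least 15.4-fold for IL12RB1 and at least 11-fold for DAPK1 over the floor of 3 counts. As for AQP9, these bounds would be lower if both reads of a fragment were counted.

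**Figure D5:**
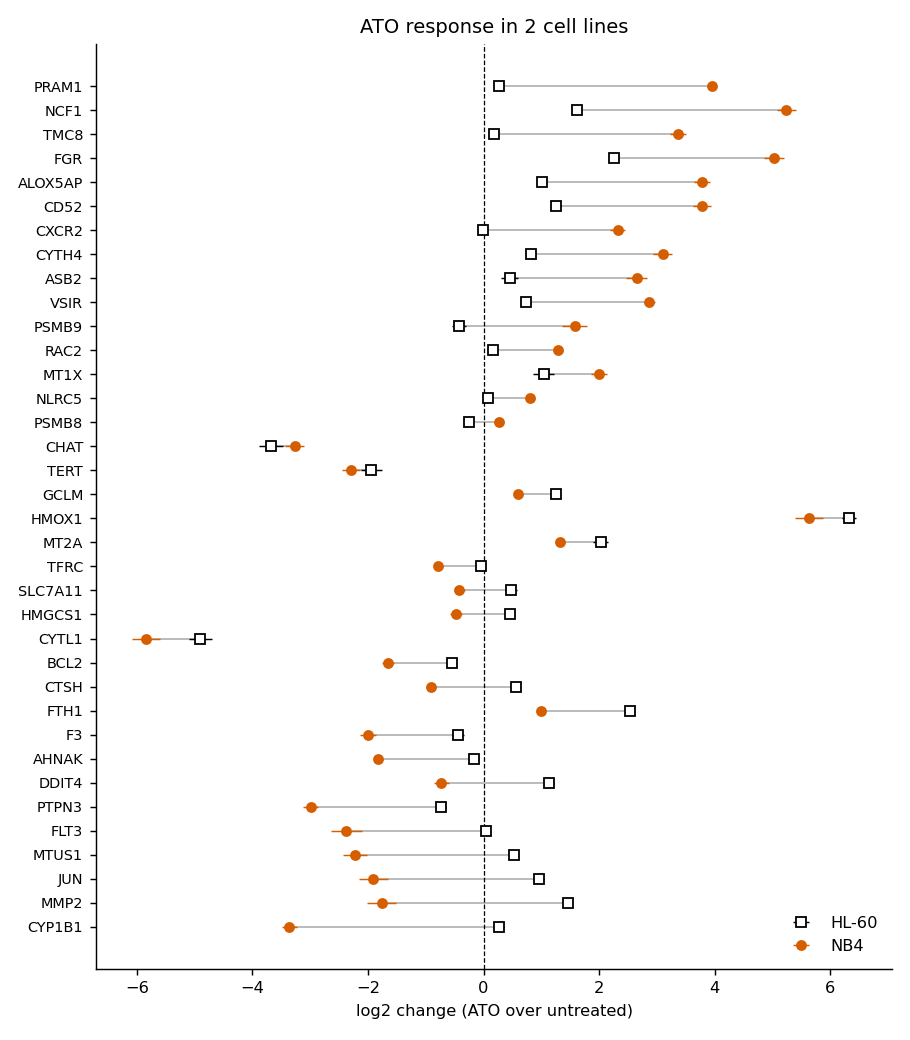
Log2 change with ATO in NB4 (filled circles) and HL-60 cells (open squares), with bars of 1 standard error, for genes whose line difference is given in the text. NCF1, PRAM1 and FGR rose by more in NB4, HMOX1 rose in both lines, and CYP1B1 and JUN fell in NB4 while they rose in HL-60.

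ATO was also set against ATRA in NB4 cells, a comparison that uses the same 3 ATO libraries but no untreated ones. Of 16370 genes, 8087 differed (49.4%), 3961 higher (24.2%) and 4126 lower (25.2%) with ATO, and with library sizes alone 66.2% of the differences were higher, against 49%. Most genes of the maturation lists were lower with ATO than with ATRA. The transglutaminase gene TGM2, a hallmark retinoid target, was at 5722, 4971 and 6608 CPM with ATRA and 0.0415, 0.0817 and 0.0439 CPM with ATO. CYP26B1, PTGES, MPEG1, DAAM2, LILRA5, CEACAM1 and LRRC32 were, with TGM2, the 8 lowest with ATO, each with a mean of at most 0.0557 CPM there. NCF1 was at 1307, 1111 and 1659 CPM, ITGAM at 267, 244 and 310.4 CPM and S100A9 at 499.7, 428 and 717 CPM with ATRA, all above every ATO library (-4.71 ± 0.126, -3.57 ± 0.0821 and -5.23 ± 0.157 for ATO over ATRA). Of 12 oxidase genes 10 were lower with ATO and 1 higher, of 36 surface receptors 32 and 3, and of 41 interferon-stimulated genes 36 and 1.

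Other genes were higher with ATO. HMOX1 (3.12 ± 0.186), MT2A (3.90 ± 0.0867), MT1X (2.80 ± 0.151), MT1F (1.44 ± 0.184) and GCLM (1.23 ± 0.0745) were above their ATRA levels, and 24 of 31 proteasome subunits were higher and none lower. These gaps are not the rises with ATO. Over untreated cells the log2 changes were 1.32 for MT2A, 2.0 for MT1X, 1.44 for MT1F and 0.6 for GCLM. The proteasome median was 0.12 over untreated and 0.4 over ATRA cells. HMOX1 rose by more over untreated than over ATRA cells. The 8 largest were STAB1, TRAC, ANXA8, SERPINB10, MZB1, CST7, EMILIN2 and CLU. STAB1, a scavenger receptor gene, was at 21.4, 25.7 and 19.8 CPM with ATO and 0.0534, 0.105 and 0.547 CPM with ATRA, but at 35.8, 31.1 and 37 CPM untreated, and its fall with ATO did not pass with DESeq2 (adjusted p = 0.179). The change of TRAC with ATO did not pass (0.24 ± 0.122), and TRAC was at 0.293, 0.369 and 0.522 CPM with ATRA. The cystatin gene CST7 (4.53 ± 0.136) rose a little with ATO (0.45 ± 0.109). BCL2 (2.11 ± 0.113), CHAT (3.19 ± 0.235) and TERT (2.46 ± 0.204), which ATO lowered, were still higher with ATO than with ATRA, and CYP1B1 was lower (-2.28 ± 0.136).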

How the data were processed

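Counts per gene in 24 libraries of poly(A) RNA were deposited by the authors as raw counts in 1 table of 60655 genes. Per the submitters' processing notes, fastp, HISAT2, featureCounts and GRCh38 were used, with no versions. No source used here gives the strand setting, the gene annotation or the unit counted (reads or fragments). Of counts from 1 to 9, 73.5% were even, against 51.3% of counts of 500 or more, so halved counts were tried. Identifiers were matched to GENCODE v29 (96.34%), and promoters to RefSeq (GRCh38.p14).

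Counts were filtered with filterByExpr and scaled by TMM, and edgeR 4.0.16's quasi-likelihood test was fitted on the 12 NB4 libraries (R 4.3.3, 8 residual degrees of freedom, biological coefficient of variation 8.78%), with the ATO minus untreated contrast and Benjamini-Hochberg adjustment over all genes tested. HL-60 was fitted likewise and the line difference on all 24 libraries. Standard errors are the log2 change divided by the square root of F. DESeq2 1.42.0, other scalings and filters, a replicate block and leaving out each library were alternatives. The steps were tried on simulated counts with few changed genes, as many up as down. These data have far more calls and larger rises than falls, so that trial does not cover their setting. The genes named are the 20 largest rises and 20 largest falls among called protein-coding genes of at least 5 CPM in 1 group whose groups do not overlap, all members of gene lists of up to 25 genes (in longer lists the 4 rises and 4 falls of smallest p and the uncalled member of highest level), the marker genes, and the 8 largest differences in each direction between lines and between drugs. For the line and drug differences a mean of 5 CPM in 1 group was needed. Comparison, rule and lists were chosen with earlier results of these data known.

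Exons of other genes cover part of CEBPA (43.4%), BCL2L1 (43%), CCNE2 (37.1%), PSMB10 (34.8%), OGG1 (29%) and TP53BP1 (28.7%), so their counts are less certain. Some genes that the rule selects are not reported here, though the list counts include them.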

Additional observations from a re-analysis of the deposited data

Results flagged for a closer look

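The results below were taken up because the change with ATO differed between NB4 and HL-60 cells by a test of the difference itself (edgeR, all 24 libraries, adjusted p below 0.05). In all, 2349 genes differed. Many of those named here were first chosen for large changes in the same NB4 libraries, which favours a larger change in NB4. Values are log2 differences, NB4 minus HL-60, with standard errors, and 3 libraries stand behind each of the 4 groups.

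Of neutrophil and signalling genes, the change was higher in NB4 for PRAM1 (3.72 ± 0.0965), NCF1 (3.66 ± 0.194), TMC8 (3.22 ± 0.151), FGR (2.81 ± 0.225), ALOX5AP (2.79 ± 0.16), CD52 (2.55 ± 0.19), CXCR2 (2.35 ± 0.14), CYTH4 (2.30 ± 0.182), ASB2 (2.22 ± 0.259), VSIR (2.15 ± 0.129) and RAC2 (1.16 ± 0.0943). Of antigen presentation genes it was higher for PSMB9 (2.04 ± 0.262), NLRC5 (0.76 ± 0.0971) and PSMB8 (0.56 ± 0.106). Defence genes differed in both directions, with MT1X higher (0.99 ± 0.22) and FTH1 (-1.50 ± 0.0941), MT2A (-0.68 ± 0.157) and GCLM (-0.64 ± 0.1) lower. Of amino acid, sterol and iron genes the change was lower in NB4 for DDIT4 (-1.85 ± 0.175), HMGCS1 (-0.90 ± 0.128), SLC7A11 (-0.88 ± 0.154) and TFRC (-0.71 ± 0.0846).

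The remaining genes with the lower change in NB4 were CYP1B1 (-3.60 ± 0.153), MMP2 (-3.20 ± 0.179), JUN (-2.84 ± 0.283), MTUS1 (-2.73 ± 0.177), FLT3 (-2.40 ± 0.202), PTPN3 (-2.22 ± 0.159), AHNAK (-1.63 ± 0.119), F3 (-1.53 ± 0.181), CTSH (-1.46 ± 0.108) and BCL2 (-1.08 ± 0.117).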

How the results depend on the processing

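Counts of called genes stayed within 1.5 times under most settings. For ATO against untreated NB4 cells the number called was 6934 with DESeq2, 6696 with its size factors, 6509 with every gene of at least 1 read, 6537 with a minimum of 1 CPM in 3 libraries, 7614 with the groups compared alone and 4853 at an adjusted p below 0.01. It ranged from 5651 to 6116 without single libraries. The number lower was 2113 with library sizes alone. At an adjusted p below 0.01, HL-60 had 3020 genes called and 1207 lower, and the line difference 1344 called, 734 higher and 610 lower. No gene called in NB4 was called in the opposite direction under any of these settings. Some named NB4 genes that did not pass were called under another setting. With only the groups compared, TXNRD1 (0.1, adjusted p = 0.0395), SLC2A1 (-0.15, 0.0191), BTK (0.11, 0.0474), PGLS (0.17, 0.0468) and TRAC (0.25, 0.0123) passed. With library sizes alone, TXNRD1 (0.2, 0.00291), GCLC (0.24, 0.0258), BTK (0.21, 0.00569), PGLS (0.27, 0.0164), ME2 (0.18, 0.0163), RNF4 (0.15, 0.0416) and TRAC (0.35, 0.0233) passed. With the replicate block 6366 genes were called in NB4. The numbers do not pair the libraries by their residuals, whose correlations over 18 same-numbered pairs ran from -0.0812 to 0.0383. With counts halved, 6730 genes were called. Depth limits most the 361 genes that rose by at least 4-fold and stayed under 1 CPM.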
